A study of Mus musculus with 12 samples.

Results

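The levels of interferon-induced GTPase genes were followed by bulk RNA-seq in epithelial cells of the mouse jejunum. The genes were 4 immunity-related GTPases (IRGs: Igtp, Irgm1, Irgm2 and Iigp1) and 6 guanylate-binding proteins (GBPs: Gbp2, Gbp3, Gbp4, Gbp6, Gbp7 and Gbp8), picked by name from a table of expression values. They are 10 of the 55421 genes listed there. Values are TPM, transcript abundances corrected for length and scaled to a fixed total in each library, and read depth was unknown.

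There were 4 groups of 3 libraries each, namely Fzd5KO day 3, Ctrl day 3, Fzd5KO day 1 and Ctrl day 1. Fzd5KO libraries are labelled as a knockout of Fzd5, the gene of the Wnt receptor Frizzled 5, and Ctrl libraries as its control. The sources used here do not give the event from which days were counted, the allele, the cell type in which it was deleted, or the strain and age of the mice. Whether the replicates are different mice is not stated either, so p-values reflect the spread among libraries, possibly a technical one.

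Interferons act through JAK kinases and STAT transcription factors, which, together with the IRF family, switch on many genes, and the GTPases described here are strongly induced by interferon gamma in mouse cells. They form coats on the vacuoles in which intracellular parasites and bacteria live, and some GBPs also bind bacterial surfaces and promote inflammasome signalling. In the intestine, epithelial cells are targets of interferon gamma made largely by lymphocytes and are themselves infected by such pathogens.

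Fzd5 itself was lower in Fzd5KO libraries but far from absent. It averaged 38.6 ± 0.97 TPM in Fzd5KO day 3 and 64.8 ± 3.95 TPM in Ctrl day 3 libraries, and 32.7 ± 0.69 TPM in Fzd5KO day 1 and 46.6 ± 2.94 TPM in Ctrl day 1 libraries (SD, n = 3 each). Its log2 change was −0.73 at day 3 (adjusted p = 4.42e-07) and −0.50 at day 1 (adjusted p = 0.000151), both from limma across all tested genes. Epcam and Vil1, which mark epithelium, were abundant in every library, at 803 to 1229 TPM and 640 to 1444 TPM. Ctrl day 1 replicate 1 lay farther from the others of its group than any other library did, with root mean square log2 differences of 0.43 and 0.44 over the 14510 genes tested. Leaving it out did not change the number of members called higher at day 3, which was 10 with and without it.

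The members lie in clusters, and near-identical sequence bears on how far each can be measured alone. In GENCODE mouse release 21 on GRCm38, the assembly also called mm10, Igtp (ENSMUSG00000078853) spans 58199556 to 58207591 and Irgm2 (ENSMUSG00000069874) spans 58199618 to 58222782, both on the plus strand of chromosome 11. Their annotated spans overlap, and 11.8% of the 50-base words in Igtp transcripts also occur in Irgm2. Irgm1 (ENSMUSG00000046879) is on the minus strand of the same chromosome, at 48861968 to 48871683, and shares 0.31% of its words with any other gene. Iigp1 (ENSMUSG00000054072) lies on chromosome 18, at 60376027 to 60392634 on the plus strand, and shares 1.69%.

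Gbp7 (ENSMUSG00000040253, at 142530342 to 142550149), Gbp3 (ENSMUSG00000028268, at 142560026 to 142573209) and Gbp2 (ENSMUSG00000028270, at 142620602 to 142638008) follow each other on the plus strand of chromosome 3 and share 12.7%, 3.75% and 2.03% of their words with other genes. On the minus strand of chromosome 5 lie Gbp8 (ENSMUSG00000034438, at 105014150 to 105139540), Gbp4 (ENSMUSG00000079363, at 105115767 to 105139586) and Gbp6 (ENSMUSG00000104713, at 105270702 to 105293698). The spans of Gbp4 and Gbp8 overlap each other and that of Gbp9 on the same strand, and they share 7.7% and 18.1% of their words. Gbp6 shares 70.7%, with 65.0% of its words also in the overlapping gene Gm43302 and 45.9% in Gbp10, so its level depends on how the authors' counting divided reads among these annotations. Gbp10 was listed at 0 to 0.81 TPM. Gm43302 was listed at 0 in 11 of the 12 libraries and at 0.06 TPM in a Fzd5KO day 3 library.

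Promoter sequences of members are shown because sites for STAT and IRF factors are the known route by which interferons act on genes of this family. STAT dimers bind the gamma-activated site (GAS), searched as TTCNNNGAA, which reads the same on both strands. IRF factors bind the interferon-stimulated response element (ISRE), whose core was searched as GAAA, any 2 bases and GAAA again or, on the other strand, TTTC, any 2 bases and TTTC. RefSeq promoters on GRCm38, from 250 bases before to 50 after the annotated start, were held for 6 of the 10 members, namely Igtp, Irgm1, Irgm2, Gbp2, Gbp3 and Gbp7. Windows below run 5′ to 3′ on the strand of the gene, and capitals mark the matches.
Igtp: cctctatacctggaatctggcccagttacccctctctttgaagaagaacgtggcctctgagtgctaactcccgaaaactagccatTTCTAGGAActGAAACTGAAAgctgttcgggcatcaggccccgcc
Irgm2: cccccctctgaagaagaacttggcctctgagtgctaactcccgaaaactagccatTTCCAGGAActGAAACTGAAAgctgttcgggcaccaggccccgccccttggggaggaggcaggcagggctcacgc
Irgm1: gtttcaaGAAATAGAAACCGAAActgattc
Gbp7: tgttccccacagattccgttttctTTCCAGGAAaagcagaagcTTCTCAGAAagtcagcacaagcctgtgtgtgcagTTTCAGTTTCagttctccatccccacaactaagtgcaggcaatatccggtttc
Gbp3: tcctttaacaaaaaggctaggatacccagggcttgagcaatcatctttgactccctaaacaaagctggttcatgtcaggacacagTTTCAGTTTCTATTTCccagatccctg
Gbp2: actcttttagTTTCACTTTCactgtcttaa

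These windows are chr11:58199426-58199555 for Igtp, chr11:58214847-58214976 for Irgm2, chr3:142530206-142530335 for Gbp7, chr3:142559914-142560025 for Gbp3 and chr3:142620594-142620623 for Gbp2, all on the plus strand, and chr11:48871428-48871457 on the minus strand for Irgm1. The 6 members have 7 promoters in the table, Gbp3 having a second that begins inside the gene and holds no match. An ISRE core was found in 6 of the 7 and in 3.44% of the 32851 promoters searched. A GAS was found in 3 of the 7, those of Igtp, Irgm2 and Gbp7, and in 8.3% of all promoters. Both were held by those 3 and by 0.454% of all promoters. These matches are not particular to the members, since of 8 promoters held for other GBP and IRG genes 6 had an ISRE core, 4 a GAS and 4 both. In Igtp the GAS began at position −45 and the ISRE core at −34 from the start. Irgm2 carried the same arrangement at −75 and −64, and its window shares an unbroken run of 38 bases with that of Igtp. Gbp7 had GAS matches at −106 and −87 and an ISRE core at −53. In Irgm1, at −30 and −24, and in Gbp3, at −45 and −39, a pair of ISRE cores overlapped each other, and Gbp2 had 1 at −59. A match is a description of the letters and was not tested for binding.

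At day 3, all 10 GTPases were higher in Fzd5KO than in Ctrl libraries, and for each of them every Fzd5KO library lay above every Ctrl library. Summed over the members, the level was 99.7 to 104 TPM in Fzd5KO day 3 libraries and 31.8 to 37.0 TPM in Ctrl day 3 libraries. Changes in log2(TPM + 1), a scale that understates the change of low genes, ranged from 0.57 for Irgm1 to 2.11 for Igtp, with a median of 1.16 against −0.14 over all 14510 tested genes. Of those genes 24.3% were called higher at an adjusted p under 0.05, and 25.7% had every Fzd5KO library above every Ctrl library, while 38.5% were called lower. A gene was tested where at least 3 libraries reached 1 TPM, and all 10 members were. Gbp4 and Iigp1 passed only through the Fzd5KO day 3 libraries in which they were high, so their differences cannot be read as support for the count. Fewer cells of a type and less RNA per cell cannot be told apart in bulk libraries.

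Igtp, also known as Irgm3, is one of 3 regulatory IRGs, which sit on the cell's own membranes and hold the effector IRGs inactive there. It was at 38.94, 42.03 and 38.68 TPM in the Fzd5KO day 3 libraries, against 9.43, 8.37 and 7.62 TPM in Ctrl day 3 libraries. The ratio of the means was 4.71, and the log2 change of 2.11 ± 0.067 (SE) had an adjusted p of 4.02e-10, the smallest of the 10 members. Irgm2, its neighbour, was at 13.44, 13.78 and 12.64 TPM in Fzd5KO day 3 and at 4.21, 4.28 and 3.46 TPM in Ctrl day 3 libraries. Its log2 change was 1.52 ± 0.088 (adjusted p = 4.90e-08). Irgm1, known in mice for defence against mycobacteria and for its part in autophagy, was at 23.55, 24.49 and 24.67 TPM in Fzd5KO day 3 libraries. In Ctrl day 3 libraries it was at 16.70, 16.11 and 15.30 TPM. Irgm1 had the smallest change of the family, 0.57 ± 0.058 (adjusted p = 6.09e-06), and a ratio of means of 1.51.

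Iigp1, or Irga6, is an effector IRG that loads onto the vacuole of Toxoplasma in mouse cells. It stood at 3.50, 3.48 and 3.73 TPM in Fzd5KO day 3 libraries, against 0.26, 0.11 and 0.13 TPM in Ctrl day 3 libraries. The ratio of these means, 21.4, was the highest of the family and rests on Ctrl values near 0, while the log2(TPM + 1) change was 1.97 ± 0.13 (adjusted p = 1.88e-07). Among the IRGs, the regulatory genes Igtp and Irgm1 thus had the largest and the smallest log2 change.

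Gbp2, Gbp3 and Gbp7 belong to the chromosome 3 cluster, which in mice is needed for resistance to Toxoplasma and for sensing of bacterial lipopolysaccharide in the cytosol. Gbp2 was at 3.68, 2.5 and 3.13 TPM in Fzd5KO day 3 libraries, against 0.83, 0.79 and 0.85 TPM in Ctrl day 3 libraries (log2 change 1.16 ± 0.13, adjusted p = 1.40e-05). Gbp3 was at 2.35, 2.35 and 2.98 TPM in Fzd5KO day 3, against 1.25, 0.67 and 0.67 TPM in Ctrl day 3 libraries (0.94 ± 0.14, adjusted p = 0.000126). Its Ctrl day 3 replicate 1 lay nearer to the Fzd5KO day 3 libraries than the other two did, without reaching them. Gbp7 was at 4.54, 3.99 and 3.85 TPM in Fzd5KO day 3, against 1.56, 1.5 and 1.05 TPM in Ctrl day 3 libraries (1.12 ± 0.11, adjusted p = 3.77e-06). Every Fzd5KO day 3 library lay above every Ctrl day 3 library for each of these neighbours.

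The chromosome 5 cluster, whose members are less well studied, moved in the same direction. Gbp6 was at 5.82, 6.85 and 6.91 TPM in Fzd5KO day 3 libraries, against 1.71, 1.77 and 1.67 TPM in Ctrl day 3 libraries. It had the largest log2 change among the 6 GBPs, 1.47 ± 0.089 (adjusted p = 7.45e-08), and the highest level of them in both day 3 groups. Both ranks depend on how reads were divided among Gbp6, Gm43302 and Gbp10. Gbp8 was at 2.35, 3.01 and 3.25 TPM in Fzd5KO day 3, against 0.79, 0.63 and 0.73 TPM in Ctrl day 3 libraries (1.17 ± 0.14, adjusted p = 2.12e-05). Gbp4, the lowest member in Fzd5KO day 3 libraries, was at 1.55, 1.14 and 1.38 TPM there, against 0.27, 0.34 and 0.27 TPM in Ctrl day 3 libraries (0.86 ± 0.15, adjusted p = 0.000389). The ratio of its means, 4.62, was close to that of Igtp, while its log2(TPM + 1) change was below that of Igtp, since its levels lie near the pseudocount of 1.

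**Figure D1:**
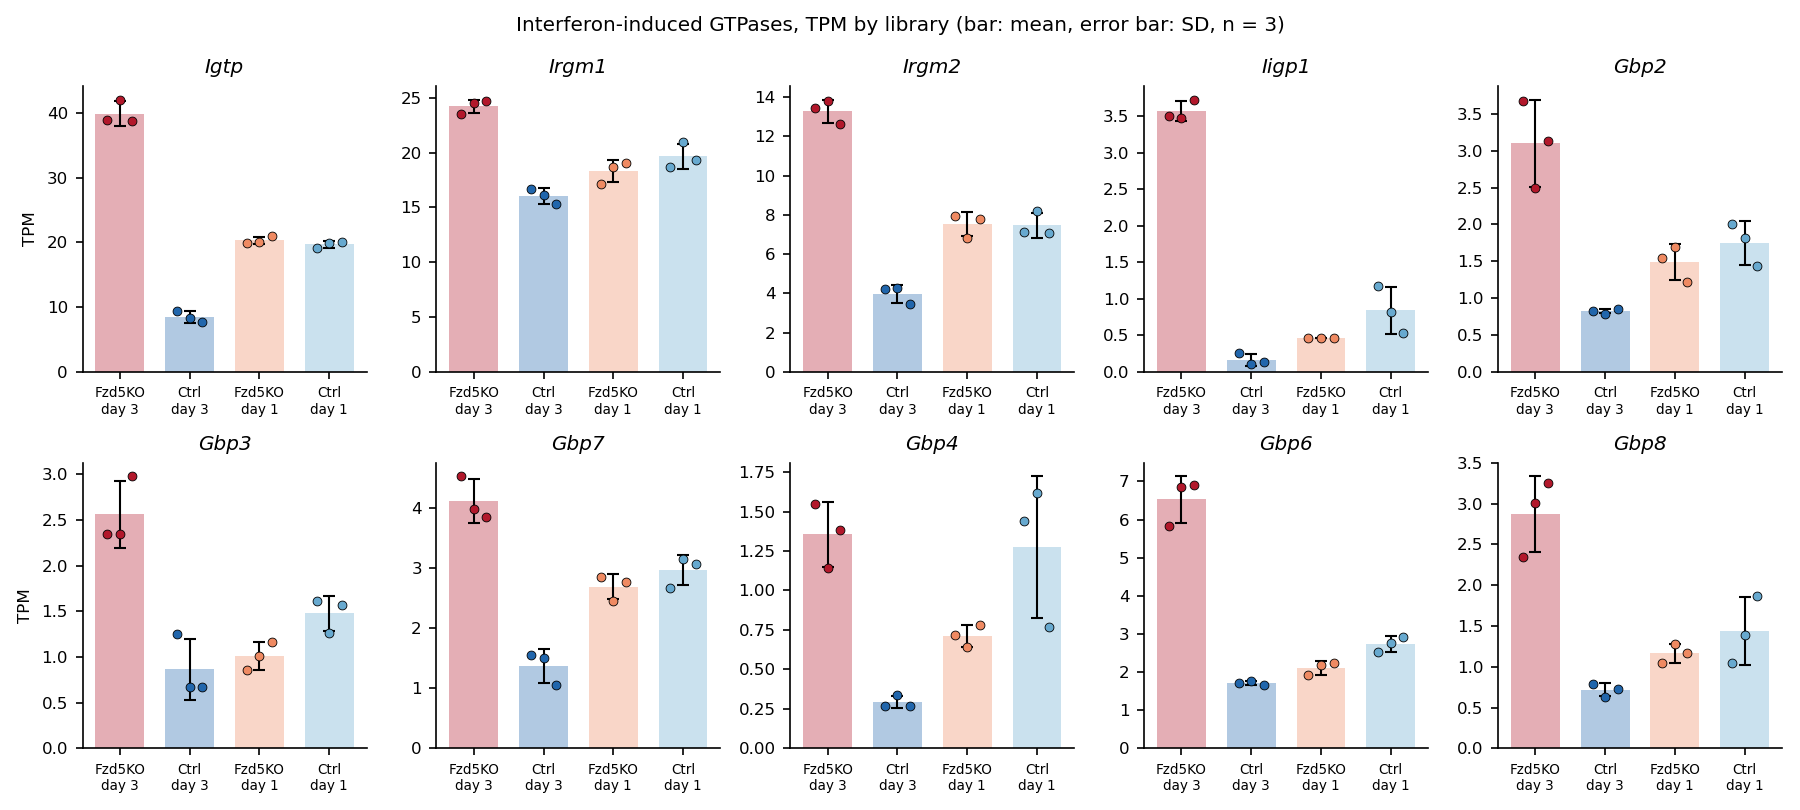
TPM of each GTPase in the 12 libraries, 1 panel a gene with its own axis from 0; points are libraries, bars the mean and error bars the SD of 3 libraries. Every Fzd5KO day 3 point lies above every Ctrl day 3 point in the 10 panels, while the day 1 groups lie closer together.

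At day 1 the family differed little between genotypes on the log2(TPM + 1) scale, which understates the change of low genes. Ratios of the means, Fzd5KO over Ctrl, ran from 0.545 for Iigp1 and 0.559 for Gbp4 to 1.03 for Igtp. None of the 10 members was called higher and 1, Gbp6, was called lower, while 2.13% of all tested genes were called higher and 22.8% lower. For 3 members every Fzd5KO library lay below every Ctrl library, as for 38.9% of all tested genes. The median log2 change of the members was −0.15, and that of all tested genes −0.14. The members' sum was 54.4 to 57.5 TPM in Fzd5KO day 1 libraries and 57.4 to 61.9 TPM in Ctrl day 1 libraries.

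Among the IRGs, Igtp was at 19.85, 20.08 and 20.95 TPM in Fzd5KO day 1 libraries, against 19.09, 19.91 and 20.01 TPM in Ctrl day 1 libraries. Its log2 difference of 0.043 had a 95% interval of −0.10 to 0.19, which lies wholly below its day 3 change. Irgm2, at 7.96, 6.84 and 7.77 TPM in Fzd5KO day 1 and 7.15, 8.19 and 7.05 TPM in Ctrl day 1 libraries, differed by 0.010 (interval −0.18 to 0.20). The groups overlapped for both genes. Irgm1 was at 17.14, 18.69 and 19.02 TPM in Fzd5KO day 1 and 18.66, 20.95 and 19.35 TPM in Ctrl day 1 libraries, again with overlap (−0.099, interval −0.23 to 0.029). Iigp1 was at 0.46 TPM in each of the 3 Fzd5KO day 1 libraries, against 1.18, 0.82 and 0.53 TPM in Ctrl day 1 libraries. Its groups did not overlap, but its difference of −0.32 did not pass the test (adjusted p = 0.0995). Without Ctrl day 1 replicate 3 its difference was −0.45 (adjusted p = 0.0318).

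Among the GBPs, Gbp6 was at 1.91, 2.19 and 2.23 TPM in Fzd5KO day 1 libraries, against 2.53, 2.76 and 2.93 TPM in Ctrl day 1 libraries. The groups did not overlap, and its log2 change of −0.27 ± 0.089 had an adjusted p of 0.0491, just inside the threshold. The call was lost when any library other than Fzd5KO day 3 replicate 1 was left out, with adjusted p-values of 0.0543 to 0.153. Gbp3 was at 0.86, 1.01 and 1.16 TPM in Fzd5KO day 1 and 1.61, 1.26 and 1.57 TPM in Ctrl day 1 libraries, without overlap and without passing the test (−0.30, adjusted p = 0.137). Gbp4 was at 0.72, 0.64 and 0.78 TPM in Fzd5KO day 1 and 1.44, 1.62 and 0.77 TPM in Ctrl day 1 libraries (−0.39, adjusted p = 0.0786). Replicate 3 of Ctrl day 1 lay at the level of the Fzd5KO day 1 libraries for Gbp4, and without it the difference was −0.56 (adjusted p = 0.0131).

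The remaining GBPs overlapped between the genotypes at day 1. Gbp2 was at 1.55, 1.70 and 1.22 TPM in Fzd5KO day 1 and 2.01, 1.81 and 1.43 TPM in Ctrl day 1 libraries (−0.14, interval −0.43 to 0.15). Gbp7 was at 2.85, 2.46 and 2.77 TPM in Fzd5KO day 1 and 2.68, 3.15 and 3.08 TPM in Ctrl day 1 libraries (−0.10, interval −0.34 to 0.13). Gbp8 was at 1.05, 1.28 and 1.17 TPM in Fzd5KO day 1 and 1.04, 1.39 and 1.87 TPM in Ctrl day 1 libraries (−0.15, interval −0.46 to 0.15). The upper ends of these intervals lie below the day 3 changes of the same genes, and values this small cannot be told from no change at this spread. Under quantile normalization the differences of Gbp2, Gbp7, Gbp8 and Irgm1 turned to small positive values, so no direction is given for them at day 1.

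The knockout effect at day 3 exceeded that at day 1 for all 10 members, as tested by the interaction term of the same fit. This difference of differences ranged from 0.67 ± 0.082 for Irgm1 (adjusted p = 5.13e-05) to 2.29 ± 0.19 for Iigp1 (adjusted p = 1.93e-06), with a median of 1.31 against 0.0092 over all tested genes, of which 25.3% were called higher. Igtp followed Iigp1 with 2.07 ± 0.094 (adjusted p = 1.85e-08), and Gbp6 led the GBPs with 1.73 ± 0.13 (adjusted p = 7.10e-07). The Gbp6 value depends on how reads were divided among Gbp6, Gm43302 and Gbp10. Gbp4 and Iigp1 passed the filter only through the Fzd5KO day 3 libraries, which enter this contrast and the mean of both days. Their values therefore give no support to either count. As the mean of both days, 9 of 10 members were called higher in Fzd5KO libraries, against 17.6% of all tested genes, and Gbp4 was not (0.24, adjusted p = 0.0758). Gbp4 was called under 6 of the alternatives. Its change was 0.29 without Ctrl day 1 replicate 2 (adjusted p = 0.0365), 0.59 at a pseudocount of 0.1 (0.0293) and 0.24 with no trend (0.0449). It was 0.37 under quantile normalization (0.0165), and median-of-ratios scaling (0.0321) and rescaling without abundant and small RNA genes (0.0308) called it as well.

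Between the days the genotypes went opposite ways. In Ctrl libraries all 10 GTPases were lower at day 3 than at day 1, with a median log2 change of −0.62 against 0.11 over all tested genes, of which 11.0% were called lower. In Fzd5KO libraries all 10 were higher at day 3 than at day 1, with a median of 0.78 against 0.11, and 34.4% of all tested genes were called higher. Gbp4 and Iigp1 passed the filter only through the Fzd5KO day 3 libraries, so their rises give no support to this count. Igtp fell by 1.13 on the log2 scale in Ctrl libraries (adjusted p = 4.18e-07) and rose by 0.94 in Fzd5KO libraries (adjusted p = 4.85e-07). Iigp1 fell by 0.65 in Ctrl (adjusted p = 0.00338) and rose by 1.65 in Fzd5KO libraries (adjusted p = 1.45e-06). Irgm1 fell by 0.28 in Ctrl (adjusted p = 0.00375) and rose by 0.39 in Fzd5KO libraries (adjusted p = 0.000194). Irgm1 had the smallest time change of the 10 members in both genotypes.

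Among the GBPs, the fall in Ctrl and the rise in Fzd5KO libraries differed in size from gene to gene, which was not tested. Gbp6 rose by 1.27 in Fzd5KO libraries and fell by 0.46 in Ctrl libraries between day 1 and day 3. Gbp4 showed the opposite weighting, with a fall of 0.80 in Ctrl libraries (adjusted p = 0.00197) and a rise of 0.46 in Fzd5KO libraries (adjusted p = 0.0273). Its Fzd5KO day 3 libraries, at 1.14 to 1.55 TPM, lay within the range of its Ctrl day 1 libraries, at 0.77 to 1.62 TPM. Gbp7 likewise fell by 0.75 in Ctrl and rose by 0.47 in Fzd5KO libraries. Gbp2, Gbp3 and Gbp8 fell by 0.59, 0.42 and 0.49 in Ctrl libraries and rose by 0.72, 0.82 and 0.83 in Fzd5KO libraries. The calls for Gbp3 (adjusted p = 0.0364) and Gbp8 (adjusted p = 0.0181) in Ctrl libraries were the weakest. For Gbp3 the adjusted p was 0.102 without Ctrl day 1 replicate 1, 0.0966 without Ctrl day 1 replicate 3, 0.121 without Ctrl day 3 replicate 2 and 0.107 without Ctrl day 3 replicate 3. With no filter it was 0.0886 and with only the Ctrl libraries in the fit 0.0860. For Gbp8 it was 0.0716 without Ctrl day 1 replicate 3, 0.0587 without Ctrl day 3 replicate 2 and 0.0520 with only the Ctrl libraries in the fit. The rise of Gbp4 in Fzd5KO libraries was lost without Fzd5KO day 1 replicate 1 (0.0609) or 2 (0.0784) and without Fzd5KO day 3 replicate 1 (0.0940) or 3 (0.0693), values that are again adjusted p, and after rescaling without abundant and small RNA genes it lay just above the threshold, at 0.05005. The time changes share libraries with the genotype comparisons and are no separate evidence for them.

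**Figure D2:**
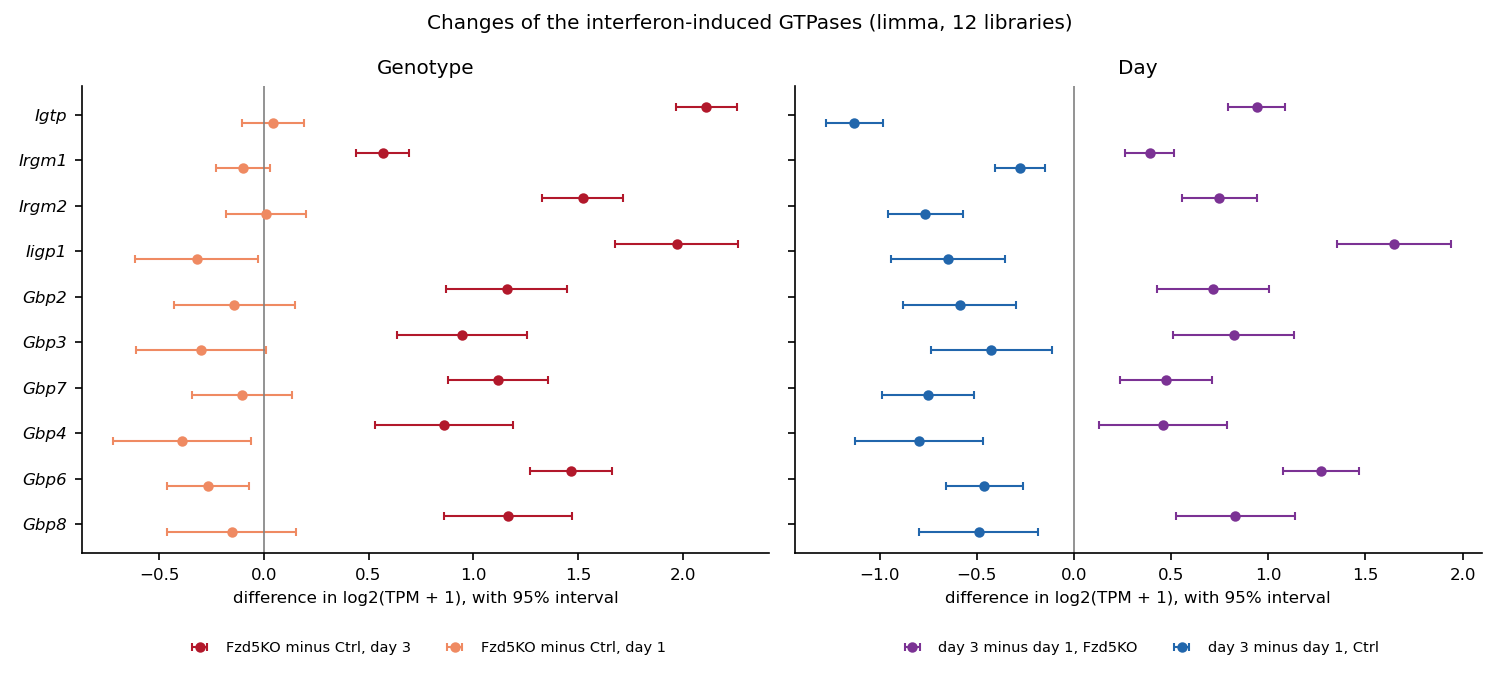
Differences in log2(TPM + 1) for the 10 GTPases, with 95% intervals from limma, for Fzd5KO minus Ctrl at day 3 and day 1 and for day 3 minus day 1 in Fzd5KO and Ctrl libraries; the vertical line is 0. All day 3 genotype differences lie between 0.57 and 2.11, the day 1 differences between −0.39 and 0.043, and the time changes fall on opposite sides of 0 in the genotypes.

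The order of the members by level, which TPM allows because it is corrected for length, changed at the top. In Fzd5KO day 3 libraries Igtp averaged 39.9 ± 1.86 TPM, above Irgm1 at 24.2 ± 0.60 and Irgm2 at 13.3 ± 0.59 TPM (SD, n = 3 each), with no overlap between neighbours in that order. Gbp6 (6.53 ± 0.61 TPM) and Gbp7 (4.13 ± 0.36 TPM) came next, then Iigp1, Gbp2, Gbp8 and Gbp3, whose libraries overlapped from each to the next, and Gbp4 was last. In Ctrl day 3 libraries Irgm1 led with 16.04 ± 0.70 TPM, above Igtp at 8.47 ± 0.91 TPM, and Iigp1 was lowest at 0.167 ± 0.081 TPM. Igtp and Irgm1 lay close together at day 1, at 20.3 ± 0.58 and 18.3 ± 1.004 TPM in Fzd5KO libraries, and at 19.7 ± 0.50 and 19.7 ± 1.17 TPM in Ctrl libraries, where they overlapped.

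A ratio of 2 members within a library does not depend on how the library was scaled. The Igtp level over that of Irgm1 was 1.65, 1.72 and 1.57 in Fzd5KO day 3 libraries, against 0.565, 0.520 and 0.498 in Ctrl day 3 libraries. The groups did not overlap (two-sided exact permutation test, p = 0.1, the smallest that 20 arrangements of 3 against 3 allow). Igtp and Irgm1 are the members with the largest and the smallest log2 change at day 3 in these same libraries. Separation of their ratio at day 3 therefore follows from the pair taken and gives no separate support. At day 1 the ratio was 1.16, 1.07 and 1.10 in Fzd5KO and 1.02, 0.950 and 1.03 in Ctrl libraries (exact p = 0.1). Such a ratio shows unequal change and not which gene changed. Across the 12 libraries, with each gene centred on its own mean, the closest pair of members was Gbp7 and Irgm2, with a root mean square log2 difference of 0.172. Gbp3 and Gbp8, on different chromosomes, followed with 0.181, and Igtp was nearest to Irgm2 (0.225).

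Most tested genes of the rest of the family rose at day 3 as well. Of 14 other GBP and IRG genes listed, 7 were tested, and 5 of those were called higher in Fzd5KO day 3 than in Ctrl day 3 libraries, against 24.3% of all tested genes. Their median was 0.74 over the 7 against −0.14 over all genes. One of the 7, 9930111J21Rik1, would not have passed the filter without the Fzd5KO day 3 libraries. Gm12250, an IRG gene also called Irgb10, was at 10.16, 12.93 and 12.66 TPM in Fzd5KO day 3, against 3.60, 3.53 and 3.23 TPM in Ctrl day 3 libraries (1.53 ± 0.12, adjusted p = 5.71e-07). Ifi47, or Irgd, was at 15.78, 16.52 and 15.99 TPM in Fzd5KO day 3, against 9.06, 8.84 and 7.71 TPM in Ctrl day 3 libraries (0.84 ± 0.074, adjusted p = 1.63e-06). For both genes the groups lay wholly apart at day 3.

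Tgtp2 and Gbp9 differed at both days, in opposite directions. Tgtp2, one of a near-identical pair with Tgtp1 also known as Irgb6, was at 2.36, 2.15 and 1.99 TPM in Fzd5KO day 3, against 0.71, 0.84 and 0.41 TPM in Ctrl day 3 libraries (0.94 ± 0.13, adjusted p = 6.08e-05). At day 1 it was at 0.91, 1.14 and 1.42 TPM in Fzd5KO, against 2.82, 2.93 and 2.52 TPM in Ctrl libraries (−0.81 ± 0.13, adjusted p = 0.00155). Gbp9 was higher by 0.74 at day 3 (adjusted p = 0.000127) and lower by a log2 change of −0.44 at day 1 (adjusted p = 0.0166). Tgtp1 (0.44, adjusted p = 0.105) and 9930111J21Rik1 (0.39, adjusted p = 0.0828) were not called at day 3, while 9930111J21Rik2 was (0.60, adjusted p = 0.0112). Reads of Tgtp1 and Tgtp2 may be divided between them by the authors' counting, so their separate values are uncertain. The 7 genes not tested were Gbp2b, Gbp5, Gbp10, Gbp11, Gm4951, F830016B08Rik and Irgc1, of which Gbp5 was at 0.28, 0.80 and 0.50 TPM in Fzd5KO day 3 and 0.12, 0.21 and 0.04 TPM in Ctrl day 3 libraries.

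Among 3 large interferon-induced GTPases outside these families, 2 rose and 1 fell at day 3, when 24.3% of all tested genes were called higher and 38.5% lower. Mx1 (0.77, adjusted p = 0.000143) and Mx2 (0.86, adjusted p = 0.000338), which act against viruses, were higher in Fzd5KO day 3 libraries. Gvin1, a very large GTPase, was at 4.32, 5.29 and 3.27 TPM in Fzd5KO day 3, against 14.40, 14.86 and 19.30 TPM in Ctrl day 3 libraries (−1.71 ± 0.26, adjusted p = 0.000163). It was lower at day 1 as well (−1.04, adjusted p = 0.016), so its direction at day 3 was opposite to that of all 10 members.

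The interferon gamma pathway was described from its ligand to its targets. The ligand gene Ifng was near the lower limit of the table, at 0.03, 0.30 and 0.00 TPM in Fzd5KO day 3 libraries and 0.07, 0.00 and 0.07 TPM in Ctrl day 3 libraries, and it was listed at 0 in 7 of 12 libraries. Of 13 genes of the ligand, receptor and signal list, 11 were tested, and at day 3 10 were called higher and 1 lower, with a median of 0.74. All tested genes had a median of −0.14 at day 3, with 24.3% called higher and 38.5% lower. The receptor chains Ifngr1 (0.17, adjusted p = 0.00213) and Ifngr2 (0.62, adjusted p = 7.86e-06) were higher, and so were the kinases bound to them, Jak1 (0.39, adjusted p = 8.35e-05) and Jak2 (0.96, adjusted p = 1.36e-09). Ptpn2, a phosphatase that dampens JAK and STAT signalling, was the 1 gene called lower (−0.52, adjusted p = 1.35e-05). It is named here after its value was seen, as is Socs3 below.

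Of the transcription factors, Irf1, which binds the ISRE, was at 161.56, 152.82 and 166.87 TPM in Fzd5KO day 3, against 99.80, 94.16 and 90.86 TPM in Ctrl day 3 libraries (0.75 ± 0.045, adjusted p = 7.12e-08). Irf8 (0.74, adjusted p = 1.06e-06) and Batf2 (0.95, adjusted p = 7.71e-08), both inducible by interferon gamma, also rose. Nlrc5, the activator of MHC class I genes, showed the largest change of the list, at 23.82, 21.80 and 23.17 TPM in Fzd5KO day 3 against 4.18, 2.87 and 2.05 TPM in Ctrl day 3 libraries (2.60 ± 0.17, adjusted p = 1.58e-07). Of the feedback inhibitors, Socs3 was higher (1.59, adjusted p = 2.00e-07). Socs1 was below the filter, at 0.77, 1.01 and 1.04 TPM in Fzd5KO day 3 and 0.39, 0.23 and 0.45 TPM in Ctrl day 3 libraries.

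At day 1 the signal list did not move as one. Irf1 was higher in Fzd5KO day 1 libraries, at 122.01, 120.61 and 119.81 TPM, against 93.87, 101.53 and 96.59 TPM in Ctrl day 1 libraries (0.31 ± 0.045, adjusted p = 0.000949), with no overlap. Batf2 was higher too (0.24, adjusted p = 0.014). Ifngr1 (−0.12, adjusted p = 0.0316) was lower by about as much as the median of all genes, −0.14. Thus 2 of 11 were called higher and 1 lower at day 1, against 2.13% and 22.8% of all tested genes. Quantile normalization and median-of-ratios scaling moved the median of all genes by 0.14 and 0.15, more than the difference of Ifngr1. Rescaling without abundant and small RNA genes moved it by 0.089, less than that difference.

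**Figure D3:**
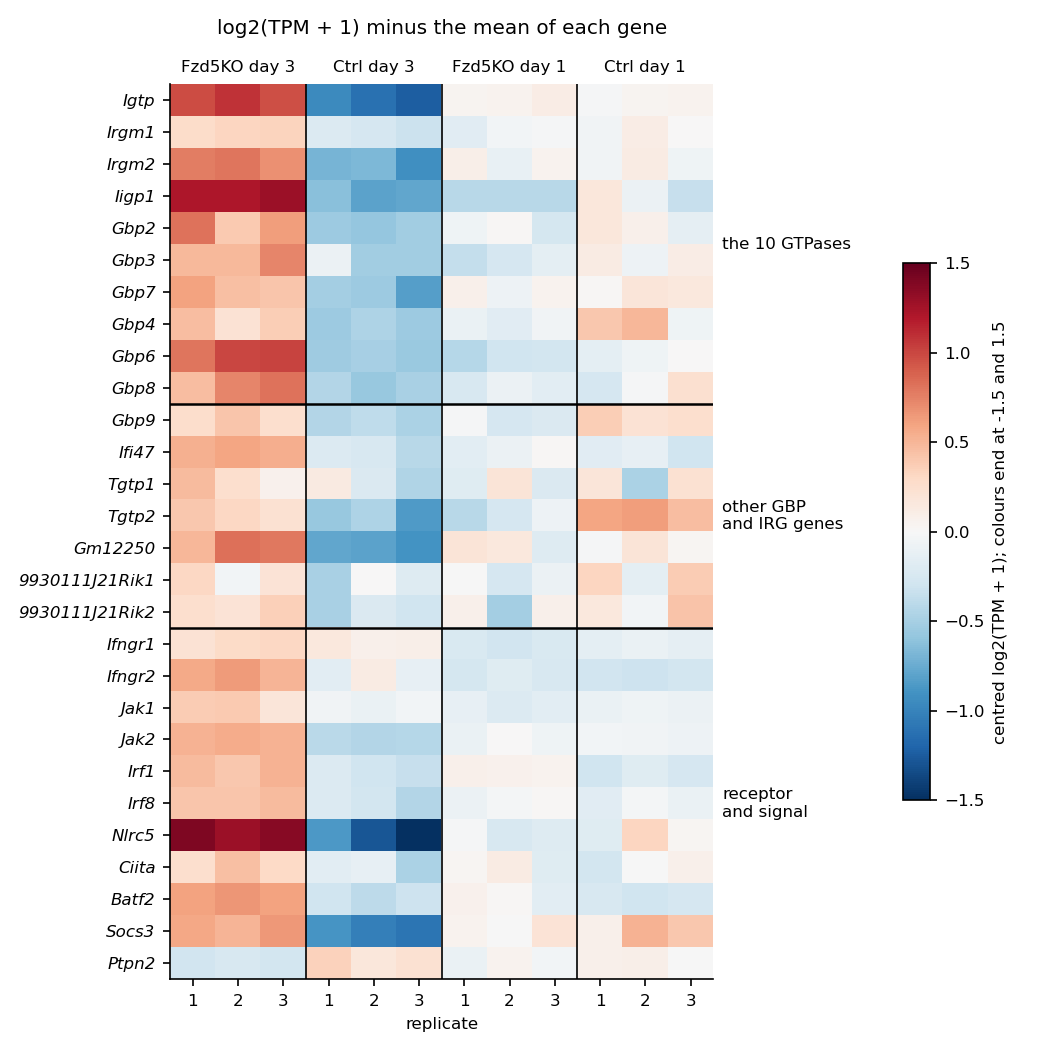
Each gene's log2(TPM + 1) minus its mean over the 12 libraries, for the 10 GTPases, the 7 other GBP and IRG genes tested and the 11 tested genes of the interferon gamma receptor and signal list; columns are libraries by group, red is above and blue below the gene's mean. The 3 Fzd5KO day 3 columns are above the mean in nearly every gene and the Ctrl day 3 columns below it in most, with Ptpn2 the reverse.

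Genes of the type I and III interferon pathways rose at day 3 too. The ligand genes Ifnb1, Ifnl2 and Ifnl3 were listed at 0 in every library. Of the 9 tested genes of this list, 8 were called higher at day 3 and 3 lower at day 1, with medians of 0.70 and −0.16. Over all tested genes 24.3% were called higher at day 3 and 22.8% lower at day 1, with a median of −0.14 at each day. Usp18, a feedback inhibitor of type I signalling, was at 25.50, 29.30 and 23.96 TPM in Fzd5KO day 3, against 5.30, 5.26 and 4.79 TPM in Ctrl day 3 libraries (2.15 ± 0.077, adjusted p = 1.12e-09). Irf7, which drives interferon genes, was at 107.20, 108.51 and 105.40 TPM in Fzd5KO day 3 and 37.76, 35.54 and 31.06 TPM in Ctrl day 3 libraries (1.60 ± 0.059, adjusted p = 1.44e-09). The lambda receptor chain Ifnlr1 rose by 0.70 (adjusted p = 9.84e-07). The pathways share signal genes, and the values do not separate them by ligand.

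Of 7 genes listed for cytokines that induce interferon gamma, including the receptor chain gene Il15ra, 3 were tested. Il18, made by enterocytes, was higher in Fzd5KO libraries at day 3, at 81.42, 75.08 and 75.95 TPM against 46.96, 46.97 and 42.51 TPM in Ctrl day 3 libraries (0.76 ± 0.062, adjusted p = 9.25e-07), and also at day 1 (0.48, adjusted p = 0.000425). Il15, which sustains intraepithelial lymphocytes, was higher at day 3 (0.54, adjusted p = 3.27e-05) and lower at day 1 (−0.25, adjusted p = 0.0221). Il15ra was not called at day 3 (−0.044, adjusted p = 0.586).

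Genes that help place the GTPases on vacuoles, or act after them, rose in part. Of 17 genes of autophagy conjugation and ubiquitin, all tested, 10 were called higher and 1 lower at day 3, with a median of 0.27. For all tested genes at day 3 the shares were 24.3% higher and 38.5% lower, with a median of −0.14. Ubd, a ubiquitin-like protein induced by interferon gamma, stood apart with 83.36, 79.87 and 86.44 TPM in Fzd5KO day 3 libraries, against 0.44, 0.48 and 0.78 TPM in Ctrl day 3 libraries (5.75 ± 0.14, adjusted p = 6.87e-11). The ubiquitin ligase Rnf213 (1.11, adjusted p = 2.64e-09) and the galectin Lgals3 (0.99, adjusted p = 3.17e-08), which marks damaged vacuoles, were higher. Atg16l1, part of the conjugation machinery that recruits GBPs and effector IRGs in mice, was the 1 gene called lower (−0.39, adjusted p = 0.00463) and is named after its value was seen. Of the 4 inflammasome genes tested, all 4 were higher at day 3, namely Gsdmd (1.19, adjusted p = 1.72e-10), the pore former of pyroptosis, Casp4 (0.41, adjusted p = 0.00109), Casp1 (0.16, adjusted p = 0.00158) and Aim2 (0.65, adjusted p = 0.0332).

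Lymphocyte markers moved with the members at day 3. Summed over 15 T cell and intraepithelial lymphocyte markers, the level was 208 to 234 TPM in Fzd5KO day 3 libraries, 52.8 to 58.7 TPM in Ctrl day 3, 148 to 175 TPM in Fzd5KO day 1 and 226 to 252 TPM in Ctrl day 1 libraries. All 13 tested markers were called higher at day 3, against 24.3% of all tested genes, and 6 were called lower at day 1, against 22.8%. Cd3e was at 3.94, 3.53 and 2.81 TPM in Fzd5KO day 3, against 2.05, 1.32 and 1.70 TPM in Ctrl day 3 libraries, and Cd8a was at 5.12, 6.21 and 6.66 TPM in Fzd5KO day 3, against 1.74, 1.92 and 2.04 TPM in Ctrl day 3 libraries. Gzma, a granule protease of cytotoxic lymphocytes, rose by 2.05 (adjusted p = 7.88e-10). From day 1 to day 3 in Fzd5KO libraries, 5 of the 13 markers were called higher and 1 lower, with a median of 0.12 and values up to 1.38. Of all tested genes 34.4% were called higher in this contrast, with a median of 0.11, and all 10 members rose. Among the members, Gbp4 and Iigp1 passed the filter only through the Fzd5KO day 3 libraries. In this contrast Cd3e changed by −0.0095 (adjusted p = 0.967) and Cd8a by 0.093 (adjusted p = 0.504). Trac, the constant part of the T cell receptor alpha chain, was at 10.25, 12.73 and 8.68 TPM in Fzd5KO day 3 and 3.50, 2.84 and 3.88 TPM in Fzd5KO day 1 libraries. In Ctrl libraries over the same time all 13 markers and all 10 members fell. The part of these cells in the GTPase levels was not tested.

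Markers of other cell types moved at day 3 as well, when 24.3% of all tested genes were called higher. The sum of 10 myeloid markers was 28.6 to 31.0 TPM in Fzd5KO day 3 and 10.4 to 14.5 TPM in Ctrl day 3 libraries, with 7 of 8 tested markers called higher, among them Lyz2 (1.15). Csf1r, C1qb and C1qc passed the filter only through the Fzd5KO day 3 libraries in which they were high, so the count gives no support. The macrophage marker Adgre1 stayed below the filter, at 0.54, 0.63 and 0.50 TPM in Fzd5KO day 3 and 0.55, 0.06 and 0.05 TPM in Ctrl day 3 libraries. The sum of 5 B and plasma cell markers was 16.9 to 18.9 TPM in Fzd5KO day 3 and 3.42 to 5.51 TPM in Ctrl day 3 libraries, with 4 of 4 tested markers higher, of which Cd79a and Ms4a1 passed the filter in the same way. Of 8 endothelial and fibroblast markers 4 were tested and 1, Pecam1, was higher, a gene that also passed only through those libraries, at 1.15, 1.33 and 1.25 TPM in Fzd5KO day 3 and 0.41, 0.57 and 0.54 TPM in Ctrl day 3 libraries. No lymphocyte, myeloid or epithelial marker was at 0 in any library, while the plasma cell marker Mzb1 was at 0 in 3 libraries and the endothelial marker Cdh5 in 2. At day 1 the myeloid sum was 9.77 to 11.4 TPM in Fzd5KO and 11.0 to 13.3 TPM in Ctrl libraries, and the B and plasma cell sum 2.7 to 3.19 TPM in Fzd5KO and 3.72 to 5.36 TPM in Ctrl libraries.

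Epithelial markers, by far the most abundant of the marker lists, mostly rose too. The sum of 13 epithelial markers was 30299 to 31084 TPM in Fzd5KO day 3 and 17012 to 17825 TPM in Ctrl day 3 libraries. Of these, 11 were called higher and 1, Krt18, lower (−0.46, adjusted p = 5.18e-07). The shares over all tested genes at day 3 were 24.3% higher and 38.5% lower. Epcam changed by 0.39 and Vil1 by 1.09 at day 3, while the enterocyte genes Fabp1, Krt20 and Sis rose by 1.12, 1.28 and 1.48. Not every enterocyte gene of the list rose, as Lct averaged 546 TPM in Fzd5KO day 3 and 568 TPM in Ctrl day 3 libraries. The part of these markers in the GTPase result was likewise not tested.

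**Figure D4:**
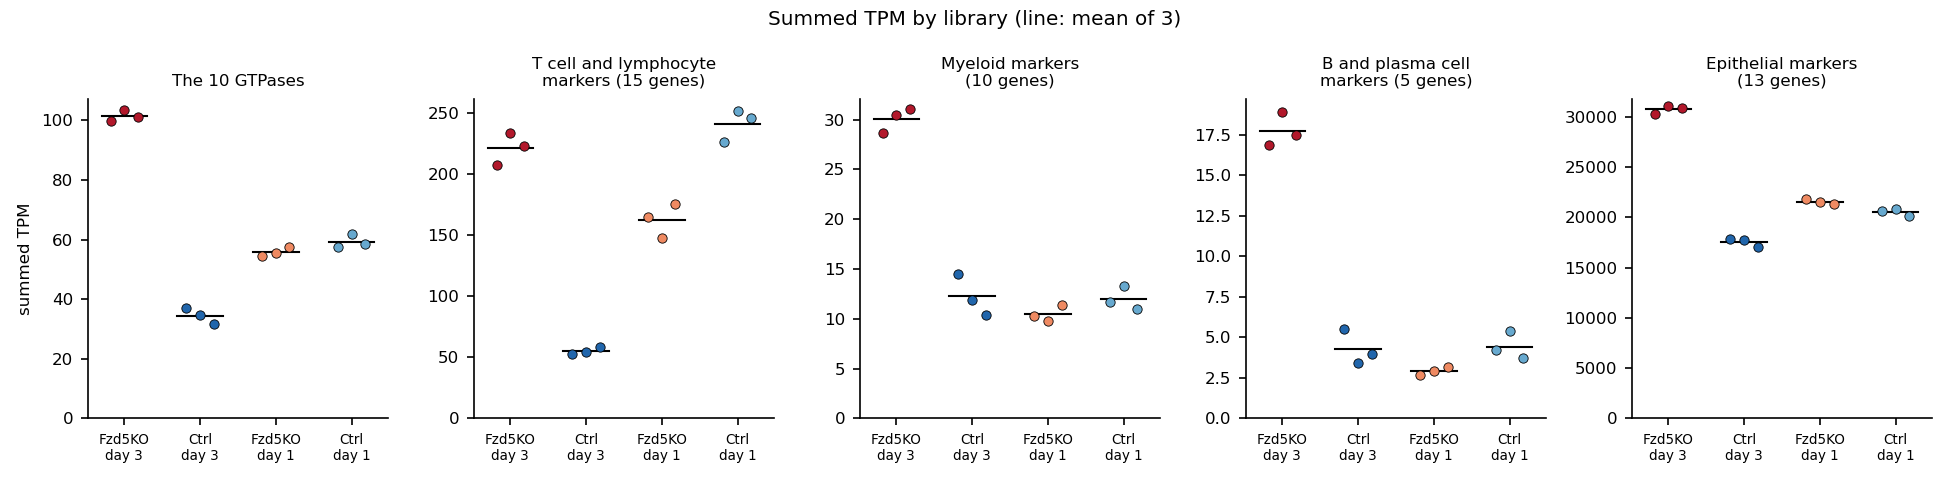
TPM summed over the 10 GTPases and over 4 lists of cell type markers in each library, each panel with its own axis from 0; the line is the mean of 3 libraries. At day 3 every sum is higher in Fzd5KO than in Ctrl libraries, while at day 1 the lymphocyte sum is lower in Fzd5KO (148 to 175 TPM) than in Ctrl libraries (226 to 252 TPM).

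The genes whose profile over the 12 libraries lay nearest to the members' mean profile were ranked by the root mean square difference of centred log2 values. The first was Slc7a7 (0.0443), a transporter of basic amino acids, then Gpd1 (0.0461), an enzyme of glycerol phosphate synthesis, and Acsl5 (0.0509), an acyl-CoA synthetase. Tap2 (0.0627), the peptide transporter of MHC class I loading, was the fourth and an interferon target. The others among the first 10 were B4galt6, Soat2, Ggt1, Sec24d, Abca1 and Clca4b, up to 0.0736. Slc7a7 averaged 199 TPM in Fzd5KO day 3 and 81.6 TPM in Ctrl day 3 libraries, and 109 TPM in Fzd5KO day 1 and 123 TPM in Ctrl day 1 libraries. Tap2 averaged 45.6 TPM in Fzd5KO day 3 and 18.3 TPM in Ctrl day 3 libraries, and 25.2 TPM in Fzd5KO day 1 and 27.6 TPM in Ctrl day 1 libraries. Both thus shared the order of the groups with the members' sum. The likeness is a description over 4 groups of 3 libraries and was not tested.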

How the data were processed

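RNA of intestinal epithelial cells was purified with RNeasy columns and made into stranded total RNA libraries, per the labels' protocols. The authors deposited TPM values, 1 column for each of 12 libraries (0 columns of no sample), for 55421 genes. Tools named in the submitters' processing notes, without role or order, are STAR 2.7.3a, RSEM and bcl2fastq 2.18, and the build is mm10. For annotation and strand setting: not given in the sources used here. TPM keeps no depth, so no counting interval could be given.

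From these values, log2(TPM + 1) was tested with limma 3.58.1 (R 4.3.3), with 1 mean for each of 4 groups, an intensity trend and a shared spread (8 residual degrees of freedom). The 14510 genes that reached 1 TPM in 3 or more libraries were tested. Within each contrast, Benjamini-Hochberg adjustment covered these genes, and an adjusted p under 0.05 was called. Intervals are 95%. The procedure was tested on simulated data.

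The members and lists were chosen with earlier results of these data known. Named genes are all members, all tested genes of the other GBP and IRG list, 15 genes named whatever their result, the 10 genes nearest in profile and, from each other list, up to 3 called genes with the smallest p in the mean-of-days contrast. Aim2, Atg16l1, Cdh5, Gbp5, Krt18, Lct, Mx2, Mzb1, Ptpn2, Socs3 and Trac were named after their values were seen. Some others were named only for failing the filter or for passing it through the Fzd5KO day 3 libraries. Some genes of the lists are not reported here and are left out of their counts.

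Coordinates and 50-base words came from GENCODE mouse release 21 on GRCm38, promoters from RefSeq on GRCm38.p6. Protein sequences were not used here. Settings changed in turn were the pseudocount (0.1 and 5), the filter (none, or 5 TPM), the scaling (quantile, median-of-ratios, and rescaling without the 20 most abundant genes and without small RNA, predicted and mitochondrial genes), the trend, array weights, the replicate block, the libraries in the fit, and each library left out. Figures were drawn with matplotlib 3.10.9 (Python 3.11.15).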

Additional observations from a re-analysis of the deposited data

Results flagged for a closer look

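For each of the 10 GTPases the effect of the knockout differed between the days, as tested by the interaction term of limma over all 12 libraries. In that contrast 25.3% of all tested genes were called higher. The log2 effect at day 3 minus that at day 1 was 2.29 for Iigp1, 2.07 for Igtp, 1.73 for Gbp6, 1.51 for Irgm2, 1.32 for Gbp8, 1.30 for Gbp2, 1.25 for Gbp4, 1.25 for Gbp3, 1.22 for Gbp7 and 0.67 for Irgm1. Adjusted p-values ran from 1.85e-08 for Igtp to 0.000555 for Gbp4. Every member also moved in opposite directions over time in the genotypes, higher at day 3 in Fzd5KO libraries and lower at day 3 in Ctrl libraries. For Gbp4 and Iigp1 the values outside Fzd5KO day 3 lie mostly below 1 TPM. Both passed the filter only through the Fzd5KO day 3 libraries, so they give no support to the count of 10.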

How the results depend on the processing

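The higher levels of the members in Fzd5KO libraries at day 3 and the difference between the days kept direction and call in all 224 and all 214 member values computed under the alternatives. These include values of Gbp4 and Iigp1, which passed the main filter only through the Fzd5KO day 3 libraries. With each library left out, 10 members were called higher in both contrasts, 9 to 10 in the mean of both days, 8 to 10 were lower at day 3 in Ctrl libraries and 9 to 10 higher at day 3 in Fzd5KO libraries. The count of 8 came without replicate 3 of Ctrl day 1 and without replicate 2 of Ctrl day 3. With a filter of 5 TPM only 4 members could be tested, and 4 were called in each of these contrasts. With only the libraries compared, 6 of the 8 members then tested were called lower at day 3 in Ctrl libraries, and the mean of both days and the interaction could not be fitted.

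At day 1 the calls changed. The 1 lower call (Gbp6) became 0 at a pseudocount of 5, with no filter, at 5 TPM, under median-of-ratios scaling and quantile normalization, after rescaling without abundant and small RNA genes and with only the libraries compared, became 2 with no trend, and ran from 0 to 2 with each library left out. Under quantile normalization and median-of-ratios scaling 1 member was called higher, Igtp (0.18, adjusted p = 0.0446, and 0.21, adjusted p = 0.0218). These scalings shifted the median of all genes at day 1 by 0.14 and 0.15, and at day 3 by 0.11 and 0.13. Directions turned under quantile normalization for Gbp2 (0.026), Gbp7 (0.090), Gbp8 (0.011) and Irgm1 (0.039), under median-of-ratios scaling for Gbp7 (0.026) and Irgm1 (0.067), and after rescaling for Irgm1 (0.000863). Irgm2 ran from −0.027 to 0.071 with each library left out. The cause was not tested. Same-numbered libraries deviated together with correlations of −0.069 to 0.033, so no pairing by number was seen. With groups of 3 libraries this check cannot exclude a pairing. With the replicate block 10 members were still called higher at day 3. Depth is unknown, and members near 1 TPM are the least precise.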
